A study of Mus musculus with 45 samples.

Results

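The 10 genes described here encode 7 Toll-like receptors (Tlr1, Tlr2, Tlr3, Tlr4, Tlr7, Tlr9 and Tlr13), the lipopolysaccharide co-receptors Cd14 and Ly96, and the adaptor Myd88. They were chosen by name from the 56039 genes listed in any of 3 tables of RNA sequencing counts, and each table lists all 10. RNA was sequenced from 45 samples in 7 groups, all from C57BL/6 mice, and the adult microglia and brain tissue samples are labelled WT (wild type). Microglia were sorted as CD11b high, CD45 intermediate cells from organotypic brain slices, which are brain slices of newborn pups kept on a membrane. The slices had been cultured for 2 weeks and then held for 24 h in medium alone (9 samples), with the cytokine TNF (tumor necrosis factor, 50 ng/mL, 11 samples), or with the growth factor GM-CSF (granulocyte-macrophage colony-stimulating factor, 20 ng/mL, 9 samples). Each slice sample pooled slices, 3 per the labels. Microglia were also sorted from female mice 10 to 15 weeks old, 24 h after an intraperitoneal injection of 1 mg/kg lipopolysaccharide (LPS, 4 samples) or of saline (PBS, 4 samples). Whole brain tissue was taken from mice of those ages, 4 of them 24 h past an equal LPS injection and 4 of them untreated, so the brain tissue controls, unlike the PBS mice, did not receive an injection.

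Toll-like receptors are membrane proteins that bind molecules of microbes and of damaged cells and start the transcription of cytokine and interferon genes. Tlr1, Tlr2 and Tlr4 act at the cell surface, where Tlr2 pairs with Tlr1 to bind bacterial lipopeptides and Tlr4 responds to LPS. Cd14 takes up LPS and hands it to a complex of Tlr4 and the secreted protein MD-2, the product of Ly96. Tlr3, Tlr7, Tlr9 and Tlr13 sit in endosomes and bind nucleic acids, namely duplex RNA (Tlr3), single-stranded RNA (Tlr7), unmethylated CpG DNA (Tlr9) and bacterial ribosomal RNA (Tlr13). Myd88 carries the signal inside the cell for the receptors listed here other than Tlr3, which uses Ticam1, while Tlr4 can use both. Microglia are among the brain cells known to carry these receptors.

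RefSeq promoter windows on GRCm38.p6, which run from 250 bases before to 50 bases after a start site, were found for 6 of the 10 genes. Those of Tlr1, Tlr2, Tlr3 and Myd88 are shown because these genes rose with TNF and the windows hold motifs that were searched on both strands. The windows are, in order, chr5:64932650-64932949, chr3:83841559-83841858, chr8:45410331-45410630 and chr9:119339969-119340268, all read from the minus strand. Capitals mark the matched bases.
Tlr1: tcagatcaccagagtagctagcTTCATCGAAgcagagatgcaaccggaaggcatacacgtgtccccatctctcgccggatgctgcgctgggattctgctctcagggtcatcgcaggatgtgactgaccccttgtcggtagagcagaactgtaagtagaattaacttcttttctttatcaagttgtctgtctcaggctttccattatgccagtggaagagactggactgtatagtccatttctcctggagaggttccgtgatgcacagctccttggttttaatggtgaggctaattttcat
Tlr2: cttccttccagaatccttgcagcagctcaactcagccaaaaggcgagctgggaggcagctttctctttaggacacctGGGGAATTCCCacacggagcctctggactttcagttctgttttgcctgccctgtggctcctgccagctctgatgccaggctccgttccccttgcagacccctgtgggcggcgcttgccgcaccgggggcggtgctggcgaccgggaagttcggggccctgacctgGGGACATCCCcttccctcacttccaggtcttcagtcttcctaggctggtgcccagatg
Tlr3: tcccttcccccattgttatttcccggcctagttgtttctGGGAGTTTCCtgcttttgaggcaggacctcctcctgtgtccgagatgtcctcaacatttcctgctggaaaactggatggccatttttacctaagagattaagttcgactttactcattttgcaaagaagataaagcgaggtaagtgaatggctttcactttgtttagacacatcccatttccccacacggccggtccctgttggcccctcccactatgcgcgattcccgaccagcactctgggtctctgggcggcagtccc
Myd88: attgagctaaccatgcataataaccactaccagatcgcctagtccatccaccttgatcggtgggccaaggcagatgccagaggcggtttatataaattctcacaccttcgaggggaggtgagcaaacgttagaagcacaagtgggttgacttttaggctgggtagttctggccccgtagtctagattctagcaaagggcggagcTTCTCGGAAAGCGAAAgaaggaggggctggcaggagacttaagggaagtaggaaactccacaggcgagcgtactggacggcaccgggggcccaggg

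The Tlr2 window held 3 matches to the NF-kappaB motif, of which 2 overlap in the first run of capitals, and the Tlr3 window held 1. The Myd88 window held the core of the interferon-stimulated response element, which is GAAA, 2 bases of any kind and GAAA again, overlapping a STAT motif, TTCNNNGAA. A match to the NF-kappaB motif was present in 4.51% of the 32851 promoter windows of the same length, the response element core in 3.44% and the STAT motif in 8.3%. Tlr1 has 2 listed windows, of which the one shown held a STAT match and the other held none of the 4 motifs. The Tlr9 window held 1 match to the AP-1 motif TGANTCA, which 7.81% of windows hold, and the Tlr13 window held none of the 4 motifs. The matches are a description of these letters and carry no evidence of binding.

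The genes lie on 8 chromosomes of the mm10 (GRCm38) build, and positions are those of the GENCODE M21 annotation. At the cell surface, Tlr1 (ENSMUSG00000044827) spans chromosome 5 from 64924679 to 64933563 on the minus strand, Tlr2 (ENSMUSG00000027995) spans chromosome 3 from 83836272 to 83841767 on the minus strand, and Tlr4 (ENSMUSG00000039005) spans chromosome 4 from 66827584 to 66930284 on the plus strand. The co-receptors are Cd14 (ENSMUSG00000051439), on chromosome 18 from 36725067 to 36726798, and Ly96 (ENSMUSG00000025779), on chromosome 1 from 16688051 to 16709611. Of the endosomal receptors, Tlr3 (ENSMUSG00000031639) lies on chromosome 8 from 45395665 to 45411080 and Tlr9 (ENSMUSG00000045322) on chromosome 9 from 106222598 to 106226883. Tlr7 (ENSMUSG00000044583) and Tlr13 (ENSMUSG00000033777) are both on chromosome X, from 167304929 to 167330558 and from 106143204 to 106160493. Myd88 (ENSMUSG00000032508) lies on chromosome 9 from 119335934 to 119341411. All 10 are annotated as protein coding.

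Depth ran from 5973364 to 9165485 total counts per slice library, from 11391564 to 14216005 per adult microglia library and from 8199863 to 10368578 per brain tissue library. The 8 microglia markers examined were found in every group, with a summed level of 17129 to 24929 CPM, a count scaled to library size with TMM factors, in the medium libraries, 55652 to 62293 in the PBS libraries and 279 to 320 in the untreated brain tissue. In each treated microglia group their summed level lay below that of the controls without overlap, at 8639 to 11819 with TNF, 11670 to 13707 with GM-CSF and 36595 to 41788 with LPS. By the study's account the LPS experiments used a separate mouse for each sample, and each slice sample pooled slices that had been treated apart, over several experiments. The labels do not tie a slice sample to an experiment, so the p-values for slices measure the spread between these pools.

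Cd14 had the highest level per length of the 10 genes in slice microglia, and Tlr9 the lowest. In CPM per kb of exon, the medium group averaged 577 ± 50.8 for Cd14 (SD, n = 9), 210.1 ± 38.3 for Tlr2, 96.2 ± 14.7 for Tlr13 and 55.5 ± 5.36 for Tlr7. These 4 genes were each separated from the next by more than their SDs. Below them Ly96, Myd88, Tlr1 and Tlr4 formed a run from 25.7 ± 6.17 to 13.2 ± 2.701 in which neighbours lay within their SDs, followed by Tlr3 at 3.69 ± 1.52 and Tlr9 at 0.472 ± 0.256. In microglia of PBS mice Cd14 was again highest, at 254 ± 7.07 (n = 4). Tlr13 (89.8 ± 9.91) and Tlr2 (80.7 ± 4.06) followed within their SDs of each other, and Tlr7 reached 72.4 ± 3.10. Tlr3 stood at 22.8 ± 1.27 per kb in PBS microglia, within its SD of Tlr1 (24.3 ± 2.45), and Tlr9 was lowest at 2.28 ± 0.275. With LPS, Tlr2 (345 ± 137) and Cd14 (292 ± 59.6) held the top of the order within their SDs of each other. Slice and adult tables were normalised separately, so the levels of the 2 kinds of microglia are set side by side without a test.

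**Figure D1:**
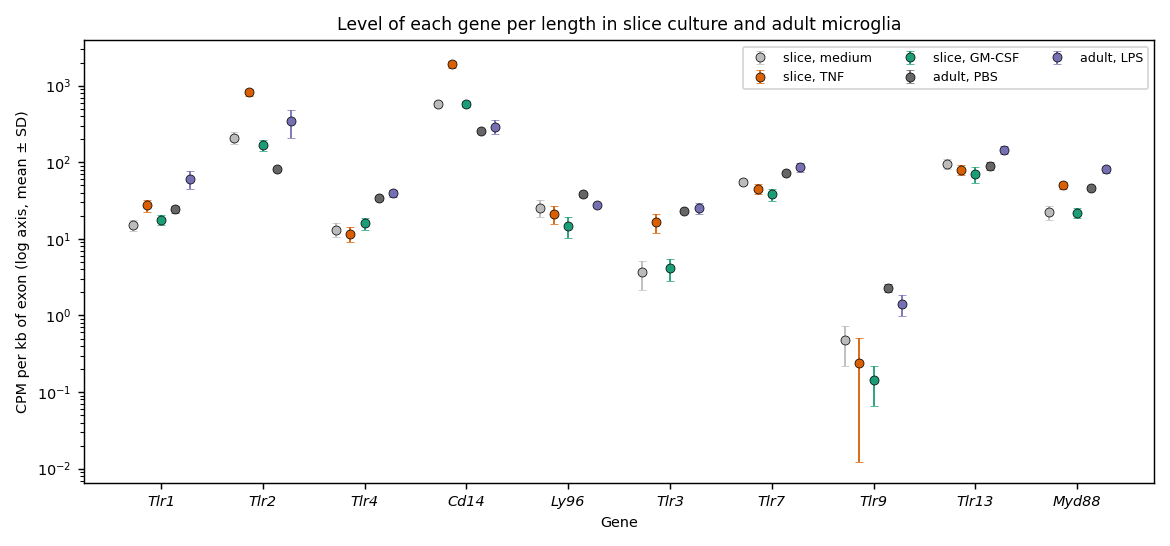
Level of each gene in CPM per kb of exon on a log axis, as mean ± SD over the 9, 11, 9, 4 and 4 libraries of slice microglia in medium, TNF and GM-CSF and of adult microglia after PBS and LPS. Cd14 lies at the top in every slice group and Tlr9 at the bottom in all 5 groups, and the lower bar of Tlr9 with TNF is cut short because it would pass 0.

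Whole brain tissue showed a different order, with Tlr3 (2.51 ± 0.0985 CPM per kb, SD, n = 4) and Myd88 (2.24 ± 0.386) first and Cd14 at 0.691 ± 0.309 in untreated mice. Tlr4 (0.219 ± 0.00898) and Tlr1 (0.153 ± 0.0776) were last and lay within their SDs of each other. A level in a mixed or sorted bulk sample cannot tell fewer cells of a type from less RNA per cell. In brain tissue the counts behind these values were small. They ran from 8 to 67 per library for the tested genes other than Tlr3, and from 98 to 154 for Tlr3. Tlr1, which was not tested there, held 3 to 8 counts per untreated library.

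TNF against medium asks which of these receptors respond to an inflammatory cytokine in slice microglia. Of the 9 genes tested, 5 rose and none fell. The surface receptors Tlr2 and Tlr1, the co-receptor Cd14, the endosomal receptor Tlr3 and the adaptor Myd88 rose by 1.79-fold to 4.48-fold, whereas Tlr4 and its partner Ly96 did not pass the test. Of all 11313 genes tested, 20.8% were called in either direction, 9.1% higher and 11.7% lower, where a call needs an adjusted p under 0.05 and a change over 1.5-fold. The median log2 fold change of the 9 genes was 0.84 against -0.03 over all genes. Of the genes that were not called, 2 lay below medium at an unadjusted p under 0.05, and DESeq2 and limma-voom each called 5 higher and 0 lower.

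Tlr2 lay between 477 and 888 CPM in the 9 medium libraries, with a median of 604. With TNF it lay between 2077 and 3108 CPM, with a median of 2511. All 11 TNF libraries were above every medium library, and the log2 fold change was 1.96 ± 0.10 (SE, adjusted p = 3.19e-18). Its partner Tlr1 lay between 41.5 and 64.2 CPM in medium (median 49.9) and between 65.0 and 114 with TNF (median 87.1). The lowest TNF library was only just above the highest medium library for Tlr1, and the log2 fold change was 0.84 ± 0.11 (SE, adjusted p = 4.21e-08). Tlr1 shares 340 of its 75-base windows, 10.3%, with the neighbouring receptor Tlr6, so the split of reads between these paralogs is uncertain. Tlr6 itself had a log2 change of 0.37 ± 0.15 (adjusted p = 0.0528) and was not called.

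Cd14 lay between 854 and 1136 CPM in medium (median 1024) and between 2556 and 3970 with TNF (median 3301). The groups did not overlap, and the log2 fold change was 1.72 ± 0.07 (SE, adjusted p = 1.15e-20). Tlr4, the receptor Cd14 serves, lay between 48.4 and 91.1 CPM in medium (median 78.8) and between 50.6 and 94.8 with TNF (median 60.7). These ranges overlap almost completely, and the log2 fold change of -0.19 ± 0.12 was not significant (adjusted p = 0.23). Ly96 likewise overlapped, at 15.3 to 32.6 CPM in medium and 13.9 to 31.0 with TNF, with a log2 change of -0.26 ± 0.17 (adjusted p = 0.238).

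Tlr3 showed the largest fold change of the 10 genes. It lay between 8.67 and 36.7 CPM in medium (median 19.7) and between 55.7 and 140 with TNF (median 81.5). Every TNF library was above every medium library, and the log2 fold change was 2.16 ± 0.20 (SE, adjusted p = 4.21e-11). Tlr3 shares 381 exon bases with an annotated antisense transcript, Gm45542, and Myd88 shares 290 with Acaa1a on the opposite strand. Whether strand was used in counting is not given in the sources used here, so reads of these pairs cannot be told apart. Myd88 lay between 40.6 and 81.4 CPM in medium (median 55.3) and between 105 and 159 with TNF (median 124). Its groups did not overlap, and the log2 fold change was 1.17 ± 0.10 (SE, adjusted p = 1.04e-11).

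The other endosomal receptors that were tested, Tlr7 and Tlr13, moved the opposite way by less than 1.5-fold. Tlr7 lay between 184 and 254 CPM in medium (median 231) and between 143 and 242 with TNF (median 174), a log2 change of -0.31 ± 0.09 (adjusted p = 0.0052). Tlr13 ranged from 325 to 496 CPM in medium (median 430) and from 272 to 443 with TNF (median 351), a log2 change of -0.26 ± 0.11 (adjusted p = 0.0479). Both pairs of ranges overlapped, and neither gene was called. Tlr9 did not pass the filter on low counts in slices, with 3 to 24 counts per medium library and 1 to 19 per TNF library, so it was not tested there.

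Of the 9 genes tested, the 5 called with TNF, and no other, did not overlap between groups, against 10.3% of all genes tested in this comparison. The sample titles carry the codes 1A, 1B, 2A and 2B, whose meaning the labels do not state. All 5 were called within codes 1A and 1B, where log2 fold changes ran from 0.79 for Tlr1 to 2.24 for Tlr3, and within codes 2A and 2B, where they ran from 0.90 for Tlr1 to 2.12 for Tlr3. Among the markers of other cells, summed neutrophil genes reached 0.134 to 13.98 CPM in medium and 2.11 to 113 with TNF. Ly6g and Mpo were at 0 in all TNF libraries, and of 2 neutrophil genes tested S100a8 was called higher (2.18, adjusted p = 0.00944). Summed monocyte genes ran from 750 to 1882 CPM in medium and from 1246 to 4037 with TNF, of which Fn1 made up nearly all. Fn1, the 1 gene of that list tested, was called higher (1.13, adjusted p = 0.000123). Ccr2 averaged 1.11 CPM in medium and 0.245 with TNF. Summed border macrophage genes overlapped, at 290 to 698 and 305 to 542 CPM, but 2 of 5 tested were called lower, Mrc1 (-1.70, adjusted p = 8.75e-07) and Lyve1 (-3.15, adjusted p = 0.00519). Of 6 astrocyte genes tested, Slc1a3 was called lower (-1.06, adjusted p = 0.00104), and of 4 oligodendrocyte genes tested, Mag was called higher (0.62, adjusted p = 0.0174). The part of these cells in the result was not tested.

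**Figure D2:**
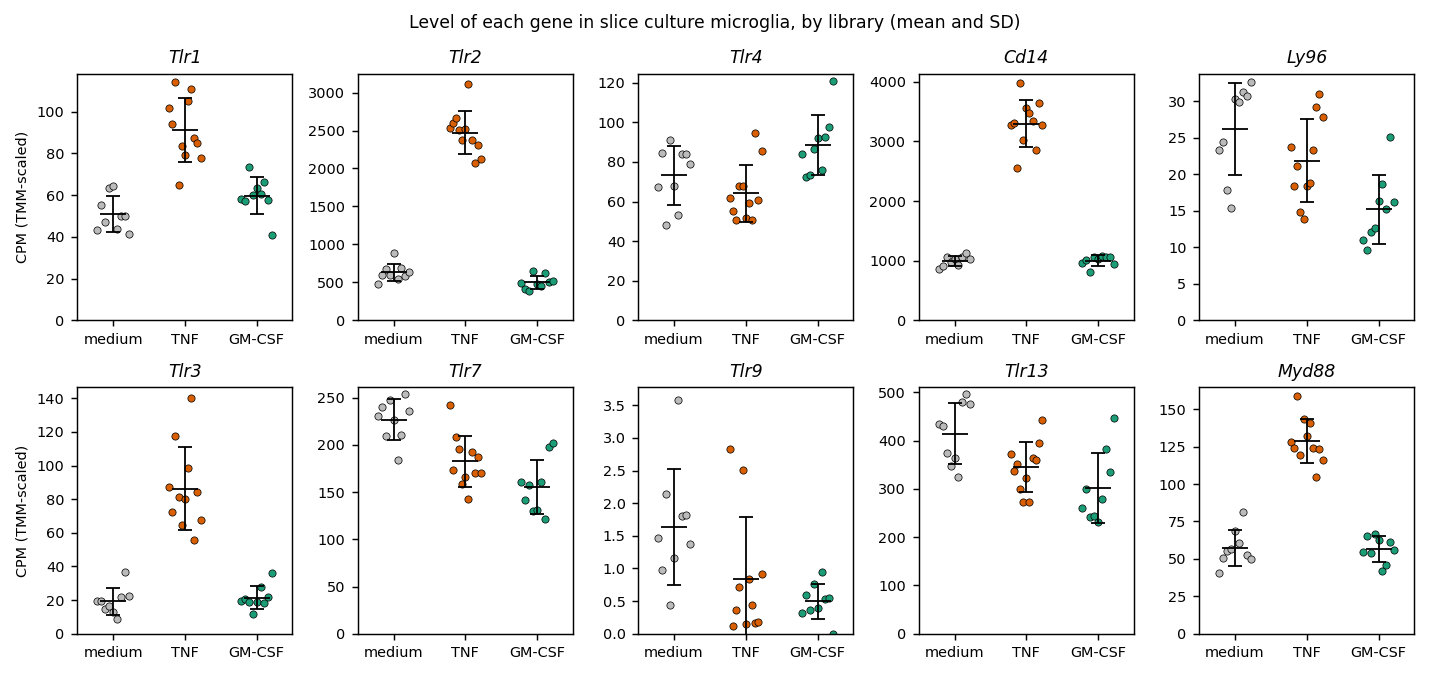
Level in CPM (y axes from 0, a scale for each gene) of the 10 genes in slice microglia, with a point for each library and the mean ± SD for medium (n = 9), TNF (n = 11) and GM-CSF (n = 9). The TNF points of Tlr1, Tlr2, Cd14, Tlr3 and Myd88 lie above all medium points, while those of Tlr4, Ly96, Tlr7 and Tlr13 overlap them.

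Of the 37 further genes of Toll-like receptor signalling listed for this work, 35 were tested in slices. With TNF 6 rose and 5 fell, with a median log2 fold change of 0.02, where 9.1% of all genes were called higher and 11.7% lower. The largest rise was in Irf7, a transcription factor that drives interferon genes, from 10.9 to 37.8 CPM in medium to 365 to 821 CPM with TNF, a log2 change of 4.49 ± 0.23 (adjusted p = 4.73e-16). Ikbke, a kinase upstream of interferon regulatory factors, rose by 2.14 ± 0.15 on the log2 scale (adjusted p = 6.63e-14). The inhibitors Irak3 (1.73 ± 0.16) and Tnfaip3 (1.71 ± 0.13), which restrain the pathway, rose as well. The largest fall was in Tlr8 (-1.66 ± 0.30), which resembles Tlr7, followed by Lbp (-1.35 ± 0.29), which carries LPS to Cd14. Ly86 (-1.18 ± 0.08) and Cd180 (-0.63 ± 0.11), whose products form a receptor complex related to MD-2 and Tlr4, fell as well, as did the inhibitor Sigirr (-1.17 ± 0.34), which was named after its value was seen. Tlr12, a receptor for profilin, rose by 1.29 ± 0.33 from a low level, 1.54 to 12.1 CPM in medium and 6.87 to 16.7 CPM with TNF. Tlr5, the flagellin receptor, had 6 counts in all medium libraries together and Tlr11 had 0, so neither was tested.

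GM-CSF against medium uses the same 9 medium libraries as TNF against medium. None of the 9 genes tested rose and 1, Ly96, fell, while 10.8% of all genes were called in either direction, 4.84% higher and 5.96% lower. The median log2 fold change was -0.02 for the 9 genes and -0.04 over all genes. At an unadjusted p under 0.05, 2 genes were higher and 4 lower, and DESeq2 and limma-voom each called 0 higher and 1 lower.

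Ly96 lay between 15.3 and 32.6 CPM in medium (median 29.9) and between 9.64 and 25.1 with GM-CSF (median 15.2). The groups overlapped, with 5 of 9 GM-CSF libraries below every medium library, and the log2 fold change was -0.78 ± 0.18 (SE, adjusted p = 0.00121). Its level differed between title codes, and within codes the smaller groups did not overlap. The share of all genes without overlap was 5.6% for the full groups and was not computed within codes. Codes 1A and 1B ran from 15.3 to 24.4 CPM in medium and from 9.64 to 12.7 with GM-CSF, a log2 change of -0.84. Codes 2A and 2B ran from 29.9 to 32.6 CPM and from 15.2 to 25.1, a log2 change of -0.75, and Ly96 was called in both. The number of Ly96 counts was modest, 82 to 238 per library in these 2 groups.

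A further 3 genes were lower with GM-CSF at an adjusted p under 0.05 but by less than 1.5-fold. Tlr7 lay between 122 and 201 CPM, against 184 to 254 in medium, a log2 change of -0.54 ± 0.09 (adjusted p = 3.33e-05). Tlr13 lay between 231 and 446 CPM (-0.46 ± 0.11, adjusted p = 0.00231), against 325 to 496 in medium. Tlr2, which rose with TNF, lay between 390 and 645 CPM with GM-CSF, at the lower edge of its medium range, a log2 change of -0.33 ± 0.10 (adjusted p = 0.00871). Cd14 (0.01 ± 0.07, adjusted p = 0.964), Myd88 (-0.02 ± 0.11, adjusted p = 0.918), Tlr3 (0.16 ± 0.20), Tlr1 (0.23 ± 0.11) and Tlr4 (0.27 ± 0.13) did not pass the test. The Cd14 libraries ran from 814 to 1080 CPM against 854 to 1136 in medium.

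Of the 35 pathway genes tested with GM-CSF, none was called higher and 3 fell, namely Cd180 (-1.27 ± 0.12, adjusted p = 2.25e-10), Irf7 (-1.22 ± 0.24) and Tnfaip3 (-0.75 ± 0.13). Over all genes tested, 4.84% were called higher and 5.96% lower. At an unadjusted p under 0.05, 4 of the pathway genes were higher and 9 lower, and both DESeq2 and limma-voom called 0 higher. The log2 fold changes of Tlr6 (0.09 ± 0.16), Tlr8 (-0.60 ± 0.31) and Tlr12 (-0.43 ± 0.35) were not significant. The microglia marker genes were called lower in 7 of 8 cases with each cytokine, and their part in these results was not tested. Summed neutrophil genes ran from 1.08 to 42.8 CPM with GM-CSF, with Camp, Ltf, Ly6g and Mpo at 0. Summed monocyte genes ran from 1481 to 3527 CPM with GM-CSF, against 750 to 1882 in medium, and Fn1, the 1 gene of that list tested, was called higher (1.00, adjusted p = 0.00134). Summed border macrophage genes overlapped, at 301 to 862 CPM against 290 to 698, with 0 of 5 called, and 1 of 6 astrocyte genes was called lower. The part of these cells in the result was not tested.

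Setting TNF directly against GM-CSF, Tlr1, Tlr2, Tlr3, Cd14 and Myd88 were higher with TNF, where 16.2% of all genes were called. The log2 differences were 2.30 ± 0.10 for Tlr2, 2.00 ± 0.20 for Tlr3, 1.72 ± 0.07 for Cd14, 1.19 ± 0.10 for Myd88 and 0.61 ± 0.11 for Tlr1 (adjusted p from 2.27e-20 for Cd14 to 1.56e-05 for Tlr1). Of the 9 genes tested, TNF and GM-CSF libraries did not overlap for the first 4 of these and no other, against 7.93% of all genes tested. For Tlr1, 10 of 11 TNF libraries were above every GM-CSF library. Tlr1 lay close to the limit of 1.5-fold and was called in 8 of 12 other settings. Leaving out GM-CSF replicate 9 or TNF replicate 2, 3 or 8 took it below that limit, at log2 differences of 0.56 to 0.58. Tlr4 went the other way, with 9 of 11 TNF libraries below every GM-CSF library and a log2 difference of -0.46 ± 0.12 (adjusted p = 0.00332), short of 1.5-fold.

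LPS against PBS in adult microglia asks how the LPS receptor genes and their relatives stand 24 h after LPS entered the body. Of the 10 genes, Tlr1, Tlr2, Tlr13 and Myd88 rose and Tlr9 fell, while Tlr4, Cd14 and Tlr3 did not pass the test. Of all 12987 genes tested, 27.4% were called, 14.4% higher and 13% lower. The median log2 fold change was 0.23 for the 10 genes and 0.01 over all genes. Groups did not overlap in 47.5% of all genes, and of the 10 genes Tlr1, Tlr2, Tlr13, Myd88 and Ly96 were without overlap.

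Tlr2 stood at 260, 243, 230 and 239 CPM in the 4 PBS libraries and at 1441, 534, 884 and 1305 CPM in the 4 LPS libraries. All LPS libraries were higher, but they differed among themselves, with replicate 2 the lowest. The log2 fold change was 2.10 ± 0.30 (SE, adjusted p = 0.000756), and without that library it was 2.32. Tlr1 stood at 88.7, 80.9, 69.9 and 85.5 CPM with PBS and at 267, 144, 184 and 219 CPM with LPS, a log2 change of 1.33 ± 0.17 (SE, adjusted p = 0.00022). Replicate 2 was again the lowest LPS library, and it still lay above every PBS library. Tlr1 and Tlr6 share 13.6% of the 50-base windows of Tlr1, and Tlr6 had a log2 change of 0.30 ± 0.08 (adjusted p = 0.0106), under 1.5-fold.

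Myd88 stood at 111, 124, 116 and 126 CPM with PBS and at 237, 182, 209 and 210 CPM with LPS. The groups were well apart, and the log2 fold change was 0.81 ± 0.08 (SE, adjusted p = 1.12e-05). The bacterial RNA sensor Tlr13 rose from 437, 402, 338 and 370 CPM to 702, 531, 600 and 668 CPM, a log2 change of 0.69 ± 0.10 (SE, adjusted p = 0.000147). Tlr9, which has few counts, went the other way. It stood at 6.53, 8.69, 8.30 and 8.22 CPM with PBS and at 4.01, 7.11, 3.76 and 4.86 CPM with LPS. One LPS library, replicate 2, lay within the PBS range, and the log2 fold change was -0.69 ± 0.21 (SE, adjusted p = 0.0172). Without LPS replicate 3 it was not called (adjusted p = 0.0534).

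The LPS receptor and its partners showed small differences. Tlr4 stood at 203, 186, 176 and 201 CPM with PBS and at 220, 200, 208 and 247 CPM with LPS. These ranges overlap slightly, and the log2 fold change was 0.19 ± 0.08 (adjusted p = 0.0623). Cd14 stood at 440, 456, 426 and 435 CPM with PBS and at 642, 401, 460 and 520 CPM with LPS. The LPS libraries spread to both sides of the PBS libraries, and the log2 fold change was 0.20 ± 0.12 (adjusted p = 0.181). Ly96 was lower in every LPS library, at 27.2, 27.2, 30.5 and 29.6 CPM against 36.7, 43.3, 37.1 and 38.4 CPM, a log2 change of -0.44 ± 0.09 (adjusted p = 0.00113) that did not reach 1.5-fold. Tlr7 (0.25 ± 0.09, adjusted p = 0.0407) was also under 1.5-fold, and Tlr3 (0.16 ± 0.11, adjusted p = 0.255) did not pass.

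**Figure D3:**
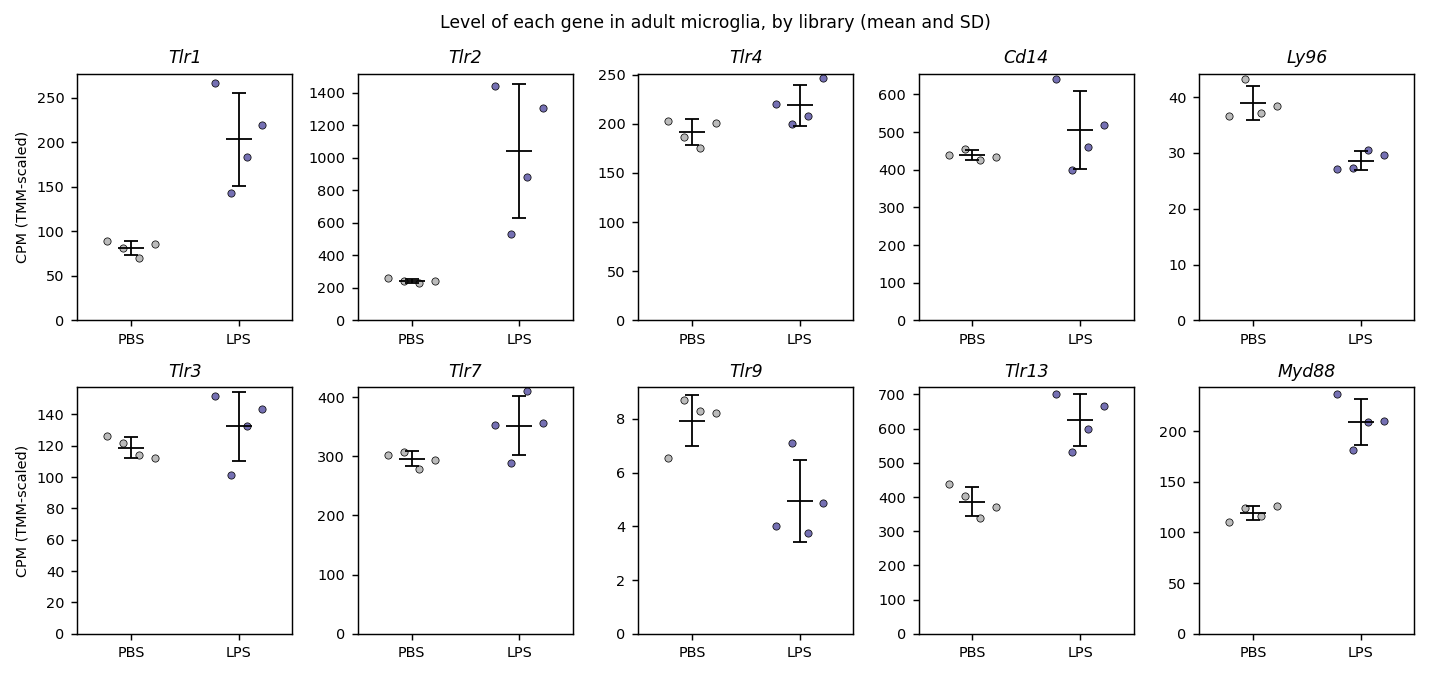
Level in CPM (y axes from 0, a scale for each gene) of the 10 genes in microglia of adult mice, with a point for each library and the mean ± SD for PBS (n = 4) and LPS (n = 4). The LPS points of Tlr1, Tlr2, Tlr13 and Myd88 lie above all PBS points, those of Ly96 lie below them, and those of Cd14 spread to both sides.

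In the same libraries 6 of 35 pathway genes rose and 1 fell, where 14.4% of all genes were called higher and 13% lower. Hsp90b1, a chaperone that Toll-like receptors need for folding, rose by 0.96 ± 0.08 on the log2 scale (adjusted p = 1.97e-06), Ikbke from 0.144 to 0.288 CPM up to 5.65 to 25.2 CPM (adjusted p = 4.42e-05), Cd36, a scavenger receptor that works with Tlr2, by 2.39 ± 0.31 (adjusted p = 6.24e-05) and Zc3h12a, an RNase that degrades inflammatory mRNA, by 1.14 ± 0.25. Tlr5 fell, by 0.65 on the log2 scale (adjusted p = 0.00325). Tlr12 (-0.58 ± 0.14, adjusted p = 0.00517) lay just under the 1.5-fold limit, Tlr11 (1.38 ± 0.58, adjusted p = 0.0625) did not pass, and Tlr8 was not tested, with 3 counts in all PBS libraries and 18 in all LPS libraries.

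The adult groups differed in markers of other cells. Summed neutrophil genes ran from 40.6 to 84.0 CPM in the PBS libraries and from 1.61 to 8.31 with LPS, and 5 of 5 tested were called lower. Summed monocyte genes ran from 11.3 to 16.2 CPM with PBS and from 29.3 to 191 with LPS, with Fn1 at 0.39 and 102 CPM on average and Ccr2 at 6.47 and 3.68 CPM. Of 4 monocyte genes tested, 1 was called higher, Fn1, and 2 were called lower, Ccr2 (-0.81) and Chil3 (-4.24). Summed border macrophage genes ran from 10.1 to 15.6 CPM with PBS and from 27.3 to 44.5 with LPS, and 3 of 3 tested were called higher. Summed endothelial genes ran from 30.4 to 37.2 CPM with PBS and from 10.7 to 14.3 with LPS, and both tested genes, Pecam1 (-1.59) and Vwf (-2.10), were called lower. Astrocyte genes, at 254 to 280 and 146 to 181 CPM, and oligodendrocyte genes, at 75.7 to 88.8 and 59.1 to 67.7 CPM, were also lower in sum with LPS, with 1 of 2 and 1 of 3 tested genes called lower. Their part in the receptor results was not tested.

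LPS against untreated mice in whole brain tissue gave calls for 5 of 8 genes tested, all higher, while 3.18% of all 15083 genes were called, 2.63% higher and 0.55% lower. Tlr2, Tlr4, Tlr7, Tlr13 and Cd14 rose, by 1.91-fold to 3.54-fold. Myd88, Tlr3 and Tlr9 did not pass the test, and Tlr1 and Ly96 were not tested because of low counts. None was lower at an unadjusted p under 0.05, and DESeq2 called 4 higher and limma-voom 5, each with 0 lower. The median log2 fold change was 1.06 for the 8 genes and 0.00 over all genes.

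Tlr2 stood at 1.01, 1.65, 0.931 and 0.940 CPM in the untreated libraries and at 2.64, 3.89, 5.08 and 4.72 CPM with LPS. The groups did not overlap, as in 16.9% of all genes, and the log2 fold change was 1.82 ± 0.28 (SE, adjusted p = 0.00051). Cd14 stood at 0.905, 1.07, 0.828 and 1.99 CPM without LPS and at 2.53, 2.71, 2.90 and 3.145 CPM with it, a log2 change of 1.23 ± 0.28 (SE, adjusted p = 0.0103). One untreated library, replicate 4, stood above the other 3. The endosomal receptors Tlr13 (1.28 ± 0.24, adjusted p = 0.00236) and Tlr7 (1.18 ± 0.21, adjusted p = 0.0019) rose without overlap, from 1.31 to 2.07 CPM to 3.30 to 5.28 CPM and from 1.88 to 2.31 CPM to 3.54 to 6.29 CPM.

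Tlr4 stood at 1.21, 1.26, 1.24 and 1.15 CPM without LPS and at 2.32, 1.65, 2.30 and 3.03 CPM with it. The groups did not overlap, but each library held only 11 to 27 counts, and the log2 fold change was 0.93 ± 0.26 (SE, adjusted p = 0.0311). The call was lost with DESeq2 (adjusted p = 0.112) and in 6 of 8 fits that left out a library (LPS replicate 1 or 4 or any untreated replicate). Myd88 (0.29 ± 0.15, adjusted p = 0.273) and Tlr3 (0.21 ± 0.11, adjusted p = 0.269) overlapped between groups, as did Tlr9 (0.08 ± 0.26, adjusted p = 0.899). Tlr1 had 3 to 8 counts per untreated library and 8 to 16 per LPS library, and Ly96 had 6 to 10 and 4 to 8, so their levels were near the limit of this depth.

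**Figure D4:**
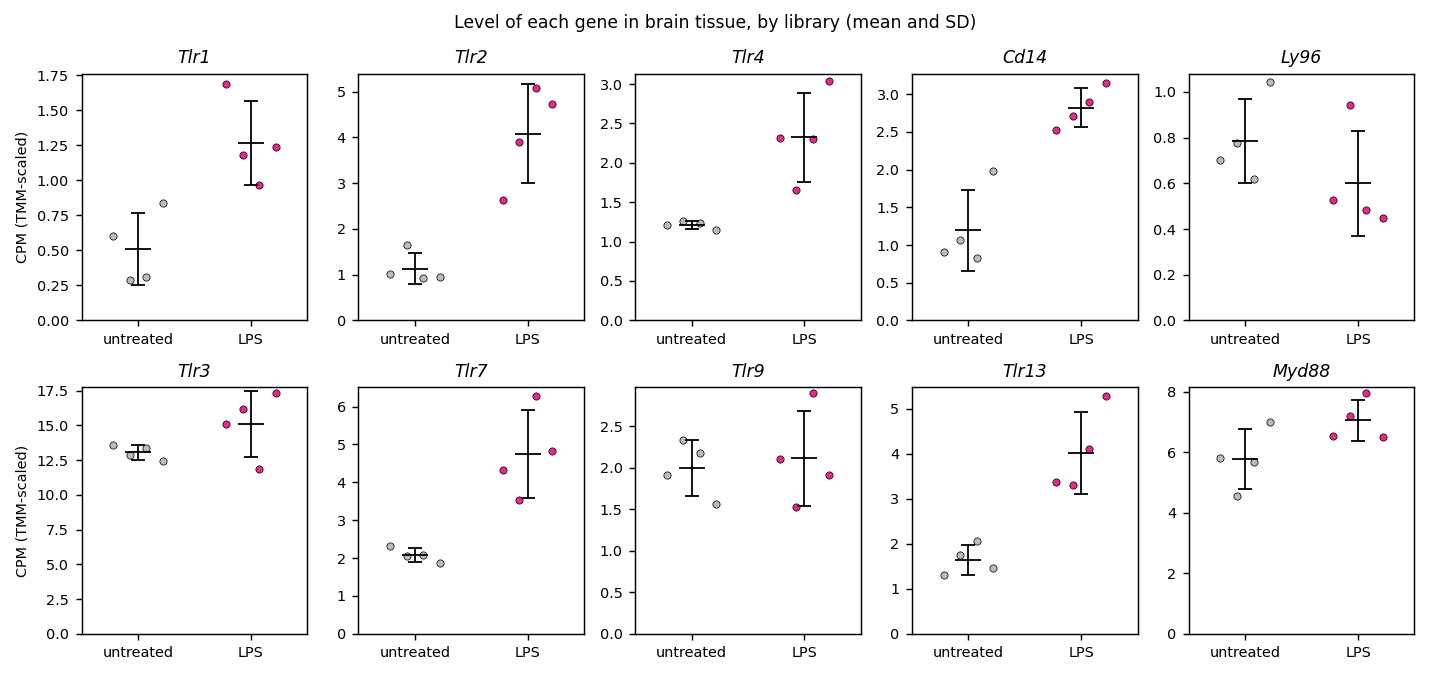
Level in CPM (y axes from 0, a scale for each gene) of the 10 genes in whole brain tissue, with a point for each library and the mean ± SD for untreated (n = 4) and LPS-treated mice (n = 4). Levels of Tlr2, Tlr4, Cd14, Tlr7 and Tlr13 lie higher in all 4 LPS libraries at 1.65 to 6.29 CPM, while Tlr3 and Myd88 overlap.

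Microglia markers in brain tissue summed to 279 to 320 CPM without LPS and to 231 to 380 CPM with it, and 3 of 8 were called lower. P2ry12 was among them, at 24.0 to 27.8 CPM without LPS and 4.35 to 11.8 CPM with it. Endothelial genes summed to 173 to 184 and 209 to 296 CPM, with 3 of 6 called higher. Neutrophil genes summed to 0.704 to 1.66 and 3.27 to 7.97 CPM, and border macrophage genes to 5.43 to 7.86 and 9.31 to 13.2 CPM, with Mrc1 at 0 in all brain libraries. The part of these cells in the rise of the receptor genes was not tested.

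Of the 30 pathway genes tested in brain tissue, 3 rose, where 2.63% of all genes were called higher and 0.55% lower. Irf7 rose from 1.94 to 2.90 CPM to 16.1 to 22.2 CPM, a log2 change of 3.14 ± 0.16 (adjusted p = 4.4e-09), with Lbp (1.40 ± 0.21, adjusted p = 0.00159) and Zc3h12a (1.11 ± 0.28, adjusted p = 0.0162). None was called lower, by edgeR, DESeq2 or limma-voom, and 2 were lower at an unadjusted p under 0.05. Tlr5, Tlr6, Tlr8, Tlr11 and Tlr12 did not exceed 1.57 CPM in any brain library and were not tested.

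Whether the LPS effect differed between adult microglia and brain tissue was tested as an interaction over the 16 samples. In this test 19.7% of all 16676 genes were called, and of the 8 genes also tested in brain tissue alone 3 were called, all with a smaller effect in sorted microglia. Tlr1 and Ly96 passed the filter here only through their counts in adult microglia, and nothing is read from their values. The difference (adult microglia minus brain tissue, log2) was -1.04 ± 0.34 for Cd14 (adjusted p = 0.0236), -0.94 ± 0.23 for Tlr7 (adjusted p = 0.00311) and -0.75 ± 0.24 for Tlr4 (adjusted p = 0.0197). All 3 lost the call with limma-voom. Cd14 also lost it without brain LPS replicate 4 (adjusted p = 0.0526) or any of untreated replicates 1, 2 and 3 (adjusted p = 0.0609, 0.0515 and 0.0623), and Tlr4 without brain LPS replicate 4 (adjusted p = 0.106). Myd88 had a larger effect in microglia, 0.51 ± 0.16 (adjusted p = 0.0186), under 1.5-fold. For Tlr2 the difference of 0.27 was not significant (adjusted p = 0.887). Library kit, sequencing run and the uninjected control of the brain tissue coincide with the tissue and cannot be told apart from it.

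Set side by side, the calls of the 10 genes differed between the 4 treatments, and Tlr1 and Ly96 were not tested in brain tissue and Tlr9 was not tested in slices. Tlr2 was called higher with TNF and in both LPS comparisons, Cd14 with TNF and in LPS brain tissue, Tlr1 and Myd88 with TNF and in LPS adult microglia, and Tlr13 in both LPS comparisons. Tlr3 was called only with TNF among the 4 treatments, and its log2 fold change was 2.16 there and between 0.16 and 0.21 in the other 3. The differences between treatments named here were tested only where a direct comparison is given above.

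**Figure D5:**
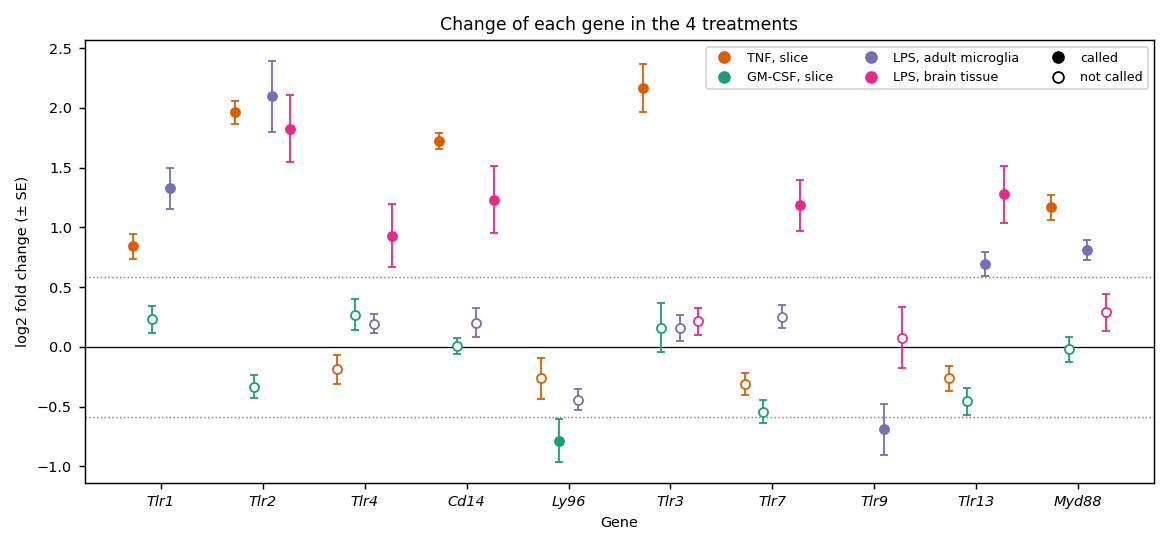
Log2 fold change ± SE of each gene with TNF (11 against 9 libraries), with GM-CSF (9 against 9), and with LPS in adult microglia and brain tissue (4 against 4 each). Filled points are called (adjusted p under 0.05 and a change over 1.5-fold, dotted lines), and the filled points of Tlr2 lie near 2 for TNF and both LPS comparisons.

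The genes whose 4 log2 fold changes lay nearest to those of each member were found among 9700 genes tested in all 4 treatments, as a description of distance. For Tlr2 they were Cxcl16 (Euclidean distance 0.398) and Igsf6 (0.565), and for Cd14 they were Tgm2 (0.575) and Nmi (0.606). For Tlr3 they were Daxx (0.385) and Prdx5 (0.507), and for Myd88 Nupr1 (0.16) and Ogfr (0.192). The nearest to Tlr13 were C1qa (0.201) and P2ry6 (0.205), to Tlr7 Ctss (0.279) and C1qb (0.29), and to Tlr4 Fes (0.239) and Arhgdib (0.264). The TNF and GM-CSF fold changes in this measure share their medium libraries.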

How the data were processed

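RNA was sequenced from 29 slice microglia, 8 adult microglia and 8 brain tissue samples. Both kinds of microglia were amplified with SMART-Seq v4 and brain tissue was prepared with TruSeq. For slice microglia the authors deposited whole-number counts per gene, and the submitters' processing notes name STAR 2.7.0a, Subread 1.6.4 and featureCounts. For adult microglia and brain tissue the authors deposited expected counts, which need not be whole and were rounded here. Their aligner is not given in the sources used here, nor is strand use. Brain tissue rows that name no gene (92, with 0 counts) were left out.

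Counts were tested with the edgeR 4.0.16 quasi-likelihood F test in R 4.3.3 (TMM, robust, minimum count 10 and minimum total 15), with Benjamini-Hochberg adjustment over all genes tested. Calls need an adjusted p under 0.05 and a change over 1.5-fold, as in the study's methods. The 29 slice samples shared 1 fit, the adult and brain samples were each fitted alone, and the interaction used all 16. Scripts were checked on simulated counts. DESeq2 1.42.0 and limma-voom (limma 3.58.1), other filters, scaling, fold limits, title codes and left-out libraries were alternatives. CPM were TMM-scaled, and levels per kb used merged exons of GENCODE M21.

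Replicates of a group differed by a chi-square per degree of freedom of 8.68 to 36.4 among slice libraries, 3.73 to 29.5 among adult libraries and 1.77 to 6.54 among brain libraries, and 0 pairs were identical. Libraries carried no molecular identifiers. The members and gene lists were chosen with earlier results of these data known. Named genes were all members in every comparison, the other Toll-like receptors, up to 4 called pathway genes per direction with the smallest p in each treatment, and the 2 genes nearest to each member. Genes named as markers came from 9 lists. Those of astrocytes, oligodendrocytes, neurons and lymphocytes summed to medians of 62.7, 110, 3.36 and 0.277 CPM in medium slices.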

Additional observations from a re-analysis of the deposited data

Results flagged for a closer look

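In 6 of 60 groups of 4 to 10 libraries, 1 library of a member gene stood apart from the others by its gap to the nearest library relative to the range, where chance gives about 1 in 20. In medium slices, replicate 5 was high for Tlr2 at 888 CPM (next 683), and replicate 8 was high for Tlr3 at 36.7 CPM (next 22.3). With GM-CSF, replicate 9 was low for Tlr1 at 40.7 CPM (next 57.0) and replicate 3 was low for Cd14 at 814 CPM (next 945). In brain tissue, untreated replicate 2 was high for Tlr2 at 1.65 CPM (next 1.01), and LPS replicate 2 was high for Ly96 at 0.943 CPM (next 0.527). The brain values rest on few counts.

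The LPS effect differed between adult microglia and brain tissue for 3 members by the interaction test of edgeR, at -0.75 for Tlr4, -0.94 for Tlr7 and -1.04 for Cd14 (adult minus brain, log2). In sorted microglia their own effects were 0.19, 0.25 and 0.20, and in brain tissue 0.93, 1.18 and 1.23.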

How the results depend on the processing

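The 5 members called with TNF stayed called in every fit that left out a library and in each of the 12 other settings, except Tlr1 at a limit of 2-fold. For GM-CSF, the count of 1 member became 0 at a limit of 2-fold, 4 with no limit and 3 in codes 1A and 1B, and ran from 1 to 2 when a library was left out (2 without GM-CSF replicate 8 or 9). In adult microglia the 5 members became 2 at a limit of 2-fold, and Tlr9 lost its call without LPS replicate 3 (adjusted p = 0.0534). In brain tissue the 5 members became 0 with a minimum count of 50, which left 2 members to test. Tlr4 there lost its call with DESeq2 (adjusted p = 0.112), without the filter (0.0537) and in all fits leaving out a library but those without LPS replicate 2 or 3 (0.0205 to 0.118 over the 8 fits). The 3 interaction members became 1 at 2-fold and 0 with limma-voom, and ran from 1 to 4 when a library was left out (1 without brain LPS replicate 4). Pathway counts became 8 for GM-CSF with no fold limit, 4 at 2-fold and 21 with no limit for adult microglia, with a range of 6 to 11 when a library was left out (11 without LPS replicate 2), and 5 with no limit for brain tissue. The cause of these changes was not tested.

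Directions reversed only for effects that were near 0 in the main fit. Cd14 with GM-CSF was -0.0023 with the stricter filter, -0.0037 with title code as a covariate and -0.0203 to 0.0392 when a library was left out. Myd88 with GM-CSF was 0.0036 without the filter, 0.25 in codes 1A and 1B, 0.0858 with total counts and -0.072 to 0.0578 when a library was left out. Its values over all alternatives ran from -0.21 to 0.25. In codes 1A and 1B its median was 52.9 CPM in medium and 60.1 with GM-CSF, and in codes 2A and 2B 60.5 and 55.7. Leaving out a library moved the interaction of Ly96 from -0.22 to 0.23, of Tlr1 from -0.33 to 0.20 (0.0287 without the filter) and of Tlr3 from -0.17 to 0.0399, and Tlr9 in brain tissue from -0.11 to 0.20. Ly96 and Tlr1 entered that interaction only through their adult microglia counts, and nothing is read from these values. Total counts in place of TMM shifted the median over all genes, on the log2 scale, by 0.11 for GM-CSF against medium and by -0.17 for TNF against GM-CSF. No mean level of a member moved by 1 SD, in 70 group means.

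Libraries with the same replicate number were checked for shared deviations from their group means. For TNF against medium the 9 correlations ran from 0.0412 to 0.184 (4 over 0.1), against a median of -0.0247 for other pairs. For GM-CSF against medium they ran from 0.0168 to 0.111 (2 over 0.1), against -0.0272. In each LPS comparison 0 of 4 were over 0.1. Replicate numbers need not match slice samples handled together, so this check cannot show whether the slice samples were paired. With the replicate number as a block, Tlr4 in brain tissue had a log2 fold change of 0.91 and lost its call (adjusted p = 0.0715), so that 4 members were called there. The number of called members was as before in the other 4 comparisons that were fitted with the block.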
